A study of Mus musculus with 18 samples.

Results

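The 80 genes described here encode heat shock proteins, J-domain proteins, BAG cochaperones and heat shock factors in mouse GL261 glioma. They were taken by symbol alone, as the protein-coding genes named Hspa, Hspb, Hspd, Hspe or Hsph with a number, Hsp90aa1, Hsp90ab1, Hsp90b1, Dnaja, Dnajb or Dnajc with a number, Bag1 to Bag6, and Hsf1 to Hsf4. They are 80 of the 48795 genes in the deposited table, of which 21695 are protein-coding, and each of the 80 had at least 1 read. The rule uses symbols and no measured value. GL261 is a glioma line of the C57BL/6 strain, here carrying GFP so that tumour cells could be told from host cells in a cell sorter. Cells had been injected into C57BL/6 mice, either wild type (WT) or Pfp/Rag2-/-, 6 mice of each host, and tumours were taken when mice showed symptoms and digested with collagenase. Pfp/Rag2-/- mice lack perforin and Rag2, and so have no mature T or B cells. The 6 groups of 3 libraries each were GFP- cells sorted from tumours in WT mice, GFP+ cells sorted from tumours in Pfp/Rag2-/- mice, GFP+ cells sorted from tumours in WT mice, unsorted tumour cells from Pfp/Rag2-/- mice, unsorted tumour cells from WT mice, and sorted GFP+ cells of the culture used for injection. GFP- cells of Pfp/Rag2-/- mice were not analysed here, all tumours came from a single cell line, and the age and sex of the mice were not given in the sources used here. The labels do not say whether the 3 libraries of a group came from separate mice or pools, so every p-value measures the spread between libraries, which may be partly technical.

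Heat shock proteins are chaperones that hold or refold unfolded proteins. Hsp70 proteins (Hspa) work in cycles of ATP hydrolysis, J-domain proteins (Dnaj) hand them their substrates and start hydrolysis, and BAG proteins and Hsph1 release the nucleotide. When unfolded proteins build up in the cytosol, the heat shock factor Hsf1 binds heat shock elements and induces genes such as Hspa1a, Hspa1b, Dnajb1 and Hspb1. The chaperones of the endoplasmic reticulum (ER), led by Hspa5, answer instead to the unfolded protein response through ER stress response elements. Constitutive members such as Hspa8 and Hsp90ab1, and the mitochondrial Hspd1, Hspe1 and Hspa9, serve ongoing folding and import. By these textbook roles the members were placed in 9 classes. These were 8 HSF1-inducible, 10 ER, 8 mitochondrial and 13 constitutive cytosolic members, 5 BAG proteins other than Bag3, 4 heat shock factors, 7 small heat shock proteins other than Hspb1, 4 tissue-restricted Hsp70 proteins and 21 other J-domain proteins.

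The 18 libraries held between 19172814 and 21141662 reads, and 20463 to 23757 genes had a read in each. Values below are normalized counts, the read count divided by a size factor per library, which lay between 0.649 and 0.761 in GFP- libraries and between 1.04 and 1.15 in all others. Prf1, the perforin gene disrupted in the Pfp/Rag2-/- host, had 117, 5.51 and 0.921 normalized counts in Pfp/Rag2-/- GFP+ libraries, against 118, 4.75 and 10.1 in WT GFP+ libraries. In unsorted libraries it had 7.11, 13.6 and 16.2 in Pfp/Rag2-/- mice, against 109, 99 and 139 in WT mice. Rag2 was at 0 in all 9 libraries from WT mice and had 4.57, 0 and 0 normalized counts in Pfp/Rag2-/- GFP+ libraries and 4.44, 6.34 and 3.61 in unsorted Pfp/Rag2-/- libraries. Which part of either gene is deleted was not given, so these levels are a limited check of the labels. In Prf1 the library labelled Pfp/Rag2-/- GFP+ 1 stood apart from the other two of its group and lay next to WT GFP+ library 1. The same library also had more macrophage and microglia signal. The summed level of 12 such markers was 2.41, 0.453 and 0.442% of the GFP- mean in Pfp/Rag2-/- GFP+ libraries, against 2.45, 0.699 and 1.49% in WT GFP+ libraries. The summed level of 4 NK cell markers, Prf1 among them, was 10.2, 0.288 and 0.144% of the GFP- mean in Pfp/Rag2-/- GFP+ libraries, against 7.21, 3.3 and 3.92% in WT GFP+ libraries. Whether this library holds cells of a WT tumour was not tested. For inducible members, values without it are given where they changed a call or a direction or moved by over 1.5 times.

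Promoter sequences are shown because the textbook regulation of HSF1-inducible and ER members runs through different motifs, though the classes were not set by motifs. RefSeq promoter windows (GRCm38.p6, 300 bases per gene start, of which the 250 before the start were searched) were found for 64 of the 80 members. The heat shock element was searched as 2 facing units, GAANNTTC or TTCNNGAA, on both strands with overlaps counted. Of all 32851 windows 12.8% held one, and of all 27025 genes with a window 14.5% did. It was present in 5 of the 7 HSF1-inducible members with a window (Hspa1a, Hspa1b, Hspb1, Hsph1 and Dnaja1) and in 1 of 9 ER members (Dnajc10). Among other members with a window, 3 of 10 constitutive cytosolic, 2 of 5 mitochondrial, 2 of 6 other small heat shock and 1 of 17 other J-domain proteins held one. No other BAG protein, heat shock factor or tissue-restricted Hsp70 with a window did. The windows of Bag3 and Dnajb1 held none. The following stretches are given 5′ to 3′ on the gene's strand, with the heat shock element in capitals. Hspa1a lies at chr17:34972233-34972280 (minus strand), Hspa1b at chr17:34959315-34959362 (minus strand), Hspb1 at chr5:135887782-135887849 (plus strand) and Hsph1 at chr5:149636342-149636389 (minus strand).
Hspa1a: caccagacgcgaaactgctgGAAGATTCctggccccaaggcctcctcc
Hspa1b: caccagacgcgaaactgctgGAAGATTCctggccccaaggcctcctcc
Hspb1: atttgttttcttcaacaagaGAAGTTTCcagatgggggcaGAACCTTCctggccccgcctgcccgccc
Hsph1: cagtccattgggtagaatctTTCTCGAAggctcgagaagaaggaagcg
The printed stretches of Hspa1a and Hspa1b are letter for letter the same, and their coding sequences were 99.4% identical over 1926 aligned bases, so the split of reads between these genes is uncertain. A longer element of 3 units, GAANNTTCNNGAA or TTCNNGAANNTTC, was in 0.466% of all windows (0.514% of all genes) and in 3 of the 64 members with a window. None of the 7 HSF1-inducible members with a window held it. The 3 with it were the constitutive Dnajb6 and the mitochondrial Hspe1 and Hspd1. Hspe1 and Hspd1 are transcribed in opposite directions from 1 shared promoter, chr1:55088039-55088096, printed here on the strand of Hspe1 (plus).
Hspe1 and Hspd1: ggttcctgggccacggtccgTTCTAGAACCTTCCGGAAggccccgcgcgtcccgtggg
The ER stress response element, searched as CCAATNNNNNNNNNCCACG on both strands, was in 0.113% of all windows (0.13% of all genes). It was in 3 of 9 ER members (Hspa5, Hsp90b1 and Dnajc3) and in no member of another class that had a window. Hspa5 holds it at chr2:34772005-34772063 (plus strand), and Hsp90b1 holds it at chr10:86705513-86705676 (minus strand), once on each strand, shown with the elements in capitals.
Hspa5: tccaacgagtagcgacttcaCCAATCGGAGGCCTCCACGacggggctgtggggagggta
Hsp90b1: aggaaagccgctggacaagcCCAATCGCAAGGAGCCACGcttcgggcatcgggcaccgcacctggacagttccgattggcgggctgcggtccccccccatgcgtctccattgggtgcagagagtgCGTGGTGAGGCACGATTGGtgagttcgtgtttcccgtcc
A match describes the letters of the window and is not evidence of binding, and members without a match may carry an element elsewhere.

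The most abundant member was a constitutive one when levels were set per exon length of the gene. In normalized counts per kilobase, Hsp90ab1, the constitutive cytosolic Hsp90, led in every group, with 19030.0 in GFP- cells, 24805 in Pfp/Rag2-/- GFP+ cells, 34326 in WT GFP+ cells, 23641 in unsorted Pfp/Rag2-/- cells, 25376 in unsorted WT cells and 32867 in culture. In GFP- cells its lead over Hspa5 was smaller than the spread between libraries. Hspa5, the ER Hsp70 also called BiP, reached 18519 per kilobase in GFP- cells and lay between 4429.9 and 7019 in the other groups. Hspa1b, the stress-induced Hsp70, had 6145 per kilobase in GFP- cells and 0.224 in culture. Hsf3, Dnajb3, Dnajb7, Dnajb8 and Hspb7 were too low to be tested in any comparison, since a gene needed 10 normalized counts in at least 3 of the libraries compared.

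Hspa1a and Hspa1b were high in the sorted host cells, low in sorted tumour cells, lower still in unsorted cells and near 0 in culture. Hspa1a had 10174, 8843 and 5665 normalized counts in GFP- libraries, 246, 34 and 24.9 in Pfp/Rag2-/- GFP+ libraries, 249, 52.3 and 61.7 in WT GFP+ libraries, 8, 3.62 and 2.7 in unsorted Pfp/Rag2-/- libraries, 11.1, 18 and 9.58 in unsorted WT libraries, and 0 in all 3 culture libraries. Hspa1b had 22197, 17339 and 12134 in GFP- libraries, 442, 98.3 and 74.6 in Pfp/Rag2-/- GFP+ libraries, 529.6, 95 and 131 in WT GFP+ libraries, 13.3, 7.25 and 9.02 in unsorted Pfp/Rag2-/- libraries, 20.3, 22.5 and 13.1 in unsorted WT libraries, and 0.945, 0.943 and 0 in culture. In both sorted GFP+ groups library 1 was far above the other two, and the GFP- libraries overlapped no other group. In bulk samples, fewer cells of a type and less RNA per cell cannot be told apart. Unsorted cells hold the GFP- population too, and their Hspa1a was 0.0329 to 0.219% of the GFP- mean while their macrophage and microglia markers were 1.88 to 6.76% of it. Hspa1a was at 2.99, 0.413 and 0.302% in Pfp/Rag2-/- GFP+ libraries and at 3.03, 0.635 and 0.75% in WT GFP+ libraries, beside the marker percentages given above. In culture 7 or 8 of the 12 markers were at 0. The part of host cells or of cell handling in the Hspa1a level of GFP+ libraries was not tested.

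**Figure D1:**
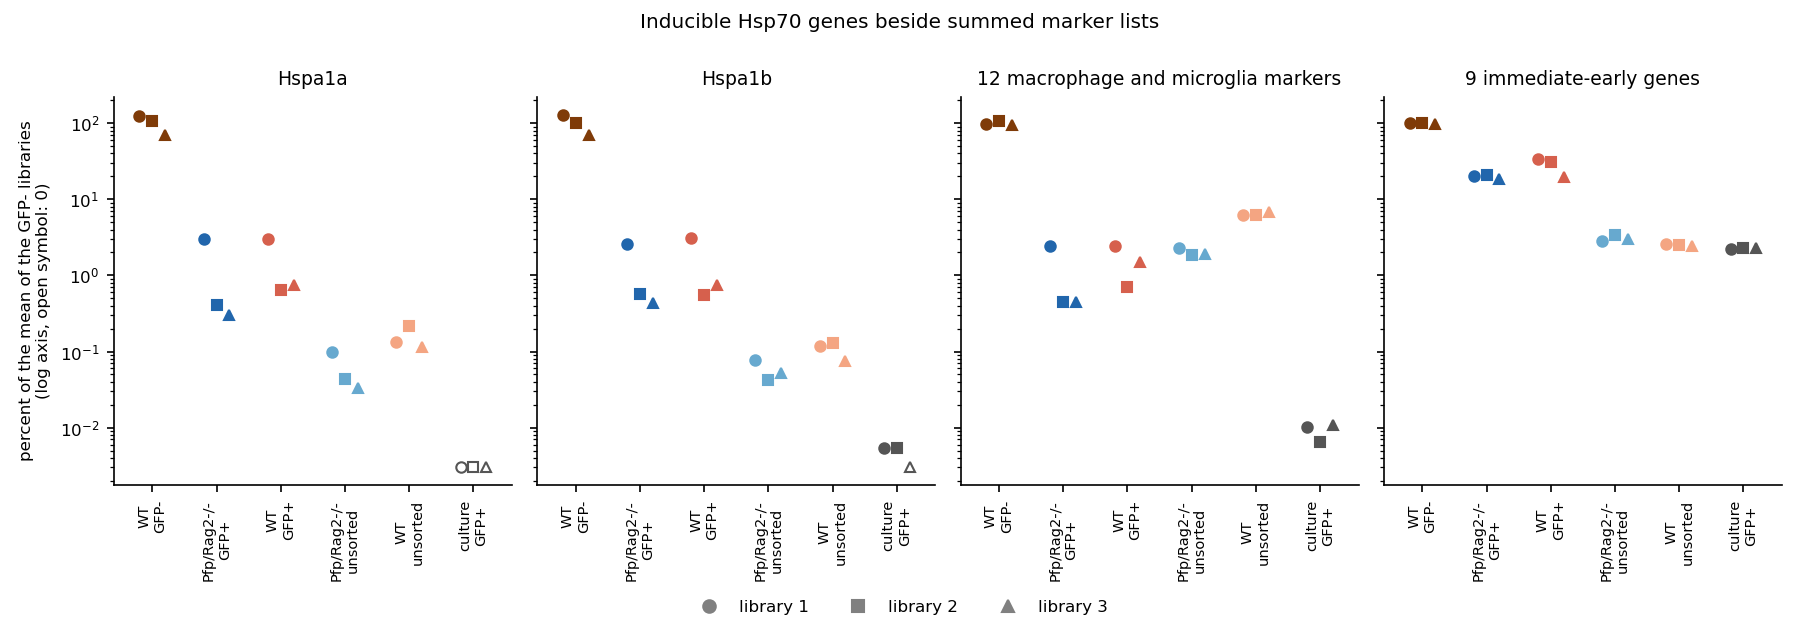
Hspa1a, Hspa1b, 12 summed macrophage and microglia markers and 9 summed immediate-early genes, each as percent of its mean in WT GFP- libraries (log axis), in the 6 groups. Each library has 1 symbol (circle, square and triangle for libraries 1, 2 and 3), and an open symbol marks 0. Hspa1a and Hspa1b lie below 0.3% in unsorted libraries, where the markers lie between 1.88 and 6.76%, and library 1 is the highest in both sorted GFP+ groups for Hspa1a, Hspa1b and the markers.

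Most inducible members were higher in sorted GFP+ cells than in unsorted cells of the same host. A member was called higher or lower where its p-value in a limma fit over all genes, on log2 of the normalized count plus 1, was under 0.05 after adjustment. In Pfp/Rag2-/- tumours 12 members were higher and 14 lower in sorted GFP+ than in unsorted cells, of 75 tested, against 30.2% called among all 15324 genes tested (11.1% higher, 19.1% lower). In WT tumours 9 were higher and 5 lower of 74, against 16.8% called among all genes (6.46% higher, 10.3% lower). Of the 8 HSF1-inducible members 5 were higher in sorted cells of each host (Hspa1a, Hspa1b, Dnajb1, Bag3 and Hsph1), none was lower, and their median log2 difference was 0.42 in Pfp/Rag2-/- tumours, against -0.06 over all genes tested, and 1.19 in WT tumours, against -0.05. Dnajb1, the J-domain partner of inducible Hsp70, had 3115, 3852 and 4071 normalized counts in sorted Pfp/Rag2-/- libraries, against 1585, 1748 and 1697 in unsorted ones, a log2 difference of 1.13 ± 0.10 (SE), adjusted p = 0.00111 (limma). In WT tumours Dnajb1 had 7228, 5786 and 4836 in sorted libraries, against 1260.2, 1550.1 and 1317 in unsorted ones (log2 difference 2.10 ± 0.16, adjusted p = 0.00458). In neither host did the sorted and unsorted values of Dnajb1 overlap.

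The same step gave smaller differences for Bag3 and Hsph1 and none past the threshold for Hsp90aa1. Bag3, the BAG protein that links Hsp70 to selective autophagy, had log2 differences of 0.36 ± 0.06 in Pfp/Rag2-/- tumours (adjusted p = 0.00618) and 1.17 ± 0.21 in WT tumours (adjusted p = 0.0145). Hsph1, an Hsp110 nucleotide exchange factor, had 0.48 ± 0.06 (adjusted p = 0.00274) and 1.20 ± 0.20 (adjusted p = 0.0124). Hspa1b had 3.82 ± 0.64 (adjusted p = 0.00601) and 3.30 ± 0.61 (adjusted p = 0.0165), and in Pfp/Rag2-/- tumours 3.03 (adjusted p = 0.00139) without the library that stood apart. Hspa1a had 3.50 ± 0.85 (adjusted p = 0.0212) in Pfp/Rag2-/- tumours, and 2.49 (adjusted p = 0.00966) without that library. Hsp90aa1, the inducible cytosolic Hsp90, had 0.15 (adjusted p = 0.147) and 0.23 (adjusted p = 0.155). Without unsorted WT library 3, only Dnajb1 of the 5 calls in WT tumours stayed past the threshold (2.07, adjusted p = 0.0387), and the others had adjusted p between 0.0582 and 0.093. Over all members in WT tumours, 1 was then higher and 1 lower, against 0.799% and 1.53% of all genes. Without WT GFP+ library 2 the counts were 4 and 2 (1.3% and 4.2% of all genes), and without WT GFP+ library 1 they were 5 and 2 (2.45% and 9.21%). The lower calls were 3 without WT GFP+ library 3 (9.07%), 2 without unsorted WT library 2 (5.13%) and 8 without unsorted WT library 1 (12.7%). In Pfp/Rag2-/- tumours Bag3 (adjusted p = 0.3) and Hsph1 (adjusted p = 0.14) lost their calls in a fit over all 18 libraries, and Hspa1a lost its call without unsorted library 2 or 3 (adjusted p = 0.0677 and 0.0644). Without the library that stood apart, Hsp90aa1 was called higher (0.21, adjusted p = 0.0482) and Hspb1 lower (-2.85, adjusted p = 0.0137) in sorted than in unsorted Pfp/Rag2-/- cells. The 9 immediate-early genes, which are induced within minutes by many stimuli, tissue dissociation among them, moved in the same direction. All 9 were higher in sorted than in unsorted cells of both hosts, and their summed level was 18.6 to 20.7% of the GFP- mean in sorted Pfp/Rag2-/- libraries against 2.83 to 3.43% in unsorted ones, and 19.5 to 34.1% in sorted WT libraries against 2.44 to 2.59% in unsorted ones. Their part in the result was not tested.

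Members that were lower in sorted than in unsorted cells included Dnajc6, the auxilin that uncoats clathrin vesicles in neurons, Hspb8, the partner of Bag3 in selective autophagy, and Hspa12a, an atypical Hsp70 of brain. Dnajc6 had a log2 difference of -4.80 ± 0.58 in Pfp/Rag2-/- tumours (adjusted p = 0.00229) and -3.63 ± 0.54 in WT tumours (adjusted p = 0.00965). Its reads were 4, 5 and 3 in sorted Pfp/Rag2-/- libraries and 5, 2 and 5 in sorted WT libraries. In unsorted Pfp/Rag2-/- libraries it had 336, 82.4 and 73.9 normalized counts. Hspb8 had -2.80 (adjusted p = 0.00177) and -3.01 (adjusted p = 0.0105), the second lost without unsorted WT library 3 (adjusted p = 0.0554). Hspa12a had -3.13 ± 0.46 (adjusted p = 0.00377) and -3.14 ± 0.66 (adjusted p = 0.0233). Its reads were 14, 17 and 9 in sorted Pfp/Rag2-/- libraries and 4, 3 and 9 in sorted WT libraries. Dnajc6 and Hspa12a did not both keep their WT calls without unsorted WT library 3. Nor did Dnajc6, Hspb8 and Hspa12a all keep their WT calls without WT GFP+ library 1 or without WT GFP+ library 2. The 4 neuron markers summed to between 288 and 465 normalized counts in sorted GFP+ libraries, to 4656, 1608 and 1416 in unsorted Pfp/Rag2-/- libraries and to 850, 794 and 1361 in unsorted WT libraries. The part of residual brain tissue in these differences was not tested.

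**Figure D2:**
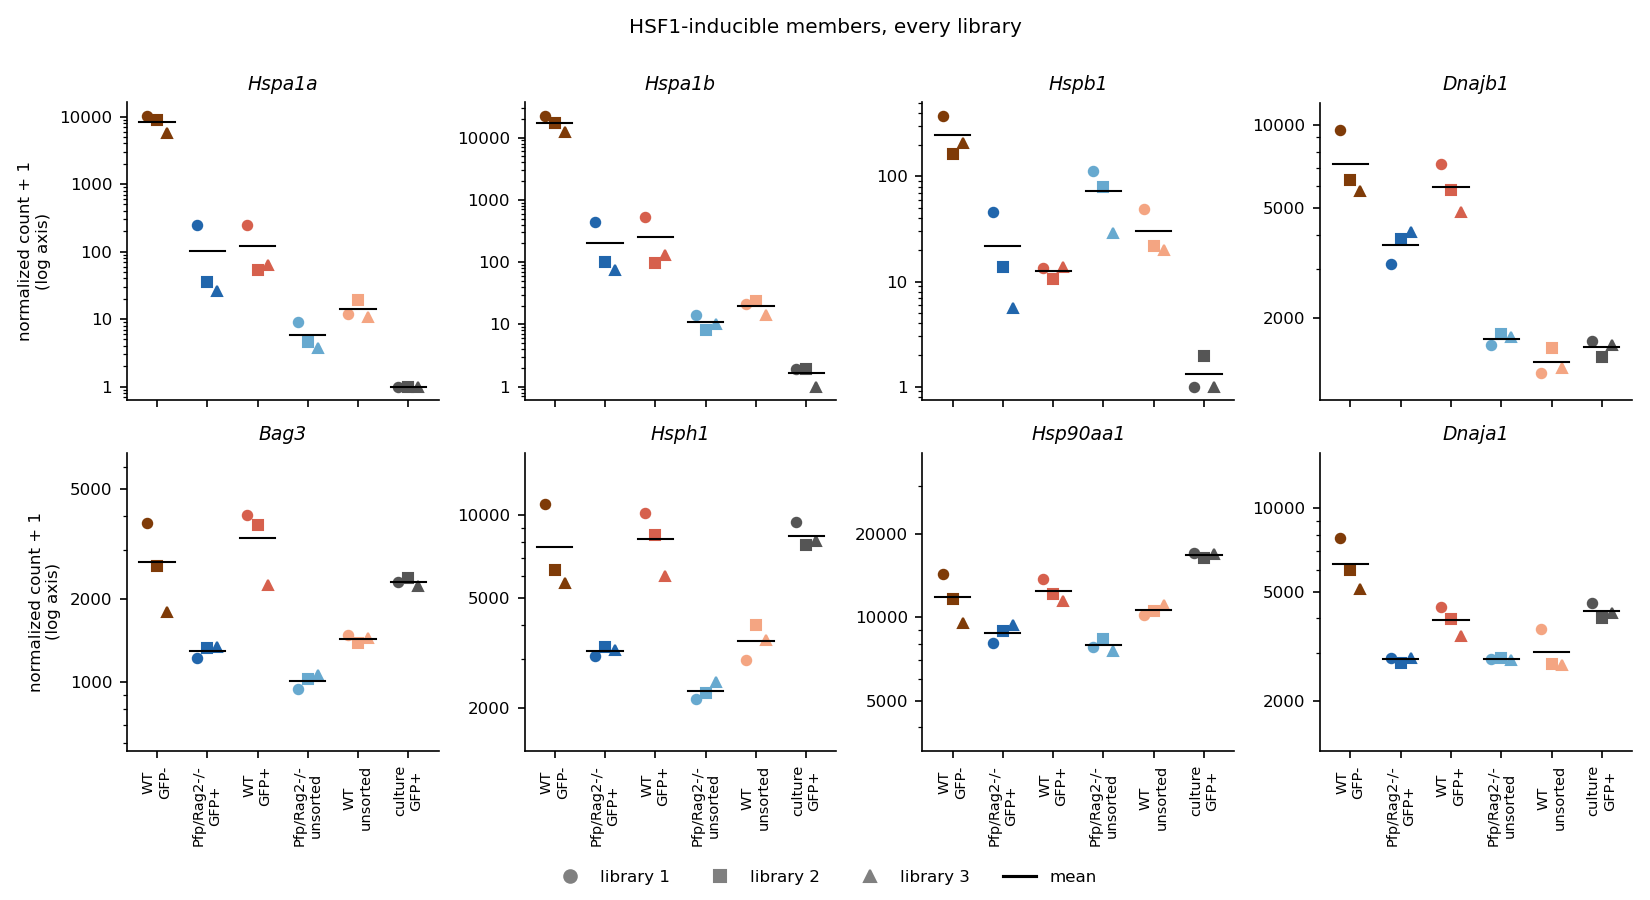
Normalized counts plus 1 (log axis) of the 8 HSF1-inducible members in the 6 groups, with 1 symbol per library (circle, square and triangle for libraries 1, 2 and 3) and a black line at the mean. Hspa1a, Hspa1b and Hspb1 lie at 0 or about 1 normalized count in culture, while Hsp90aa1 is highest in culture.

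Between tumour cells from the 2 hosts, the inducible members that differed were lower in Pfp/Rag2-/- mice. In sorted GFP+ cells 2 members were higher and 24 lower of 72 tested, against 30.4% called among all genes tested (15.0% higher, 15.3% lower), so the lower calls took a larger share of members than of all genes. Of the 8 HSF1-inducible members 5 were lower and none higher, with a median log2 difference of -0.57 against 0.02 over all genes. Bag3 had 1225, 1328 and 1334 normalized counts in Pfp/Rag2-/- GFP+ libraries, against 4039, 3705 and 2239 in WT GFP+ libraries (log2 difference -1.32 ± 0.21, adjusted p = 0.00464). Hsph1 had 3074, 3322 and 3245 in Pfp/Rag2-/- GFP+ libraries, against 10149, 8491 and 6006 in WT GFP+ libraries (-1.32 ± 0.17, adjusted p = 0.00248). For neither gene did the hosts overlap, and WT GFP+ library 3 was the lowest of the WT libraries for both. Dnajb1 (log2 difference -0.68 ± 0.16, adjusted p = 0.0191), Hsp90aa1 (-0.50 ± 0.09, adjusted p = 0.00628) and Dnaja1, a cytosolic J-domain protein (-0.47 ± 0.09, adjusted p = 0.0084), were also lower in Pfp/Rag2-/- mice. Hspa1a (-0.63 ± 0.95, adjusted p = 0.644), Hspa1b (-0.34 ± 0.83, adjusted p = 0.788) and Hspb1 (0.29, adjusted p = 0.793) did not pass the test, and their hosts overlapped. Without the library that stood apart these 3 values were -1.65 for Hspa1a (adjusted p = 0.115), -1.12 for Hspa1b (adjusted p = 0.263) and -0.51 for Hspb1 (adjusted p = 0.492), so Hspb1 changed sign and none passed.

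The 5 lower calls held when the library that stood apart was left out, with Bag3 at -1.28 (adjusted p = 0.0133) and Hsph1 at -1.29 (adjusted p = 0.00746). In all, 2 members were then higher and 17 lower, against 10.6% and 11.9% of all genes. Without both libraries numbered 1 the counts over all members were 1 higher and 11 lower, against 7.27% and 8.54% of all genes. The 5 inducible members were still called, with Bag3 at -1.11 and Hsph1 at -1.12. Without WT GFP+ library 3 the higher calls were 7 (19.2% of all genes), and without Pfp/Rag2-/- GFP+ library 2 or 3 they were 1 (7.68% and 8.37%). Without WT GFP+ library 2 the lower calls were 15 (9.32%). Dnajb1 lost its call without Pfp/Rag2-/- GFP+ library 2 (adjusted p = 0.0548) or WT GFP+ library 2 (adjusted p = 0.0613). Summed immediate-early genes were 94528 to 105225 normalized counts in Pfp/Rag2-/- GFP+ libraries, against 98787 to 173099 in WT GFP+ libraries, with WT library 3 the lowest, as for Bag3 and Hsph1. Of the 9 genes 1 was called, Jun, which was lower in Pfp/Rag2-/- mice (-0.88 ± 0.14, adjusted p = 0.00509). Of 6 pericyte and fibroblast markers, 5 were tested and all 5 were higher in Pfp/Rag2-/- GFP+ cells, 3 of 6 oligodendrocyte markers were higher (median log2 difference 1.50) and 1 of 3 astrocyte markers was lower. Of 12 macrophage and microglia markers none was called, with a median of -0.74. The part of handling and of other cells in the host difference was not tested.

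In unsorted cells 5 members were higher and 19 lower in Pfp/Rag2-/- than in WT tumours, of 74 tested, against 29.9% called among all genes (14.8% higher, 15.1% lower). Bag3 had 943, 1020.0 and 1059 normalized counts in unsorted Pfp/Rag2-/- libraries, against 1476, 1379 and 1442 in unsorted WT libraries (-0.51 ± 0.08, adjusted p = 0.0033). Hsph1 (-0.60 ± 0.12, adjusted p = 0.00955) and Hsp90aa1 (-0.43 ± 0.08, adjusted p = 0.00911) were lower too, while Dnajb1 (0.29, adjusted p = 0.0589) and Dnaja1 (-0.08, adjusted p = 0.662) did not pass. These 3 inducible calls were kept whichever library was left out, though Bag3 lost its call in a fit over all 18 libraries (adjusted p = 0.0925). Without unsorted Pfp/Rag2-/- library 3, 1 HSF1-inducible member was called higher, against 8.25% of all genes. Hspb1, at 111, 77.9 and 28 normalized counts in unsorted Pfp/Rag2-/- libraries against 48, 20.7 and 19.2 in unsorted WT libraries, was not called. Neither was Hspa1b, and Hspa1a was too low to be tested. Cell markers differed between the hosts too, and in unsorted Pfp/Rag2-/- cells all 12 macrophage and microglia markers (median log2 difference -1.69), 6 of 7 T cell markers (-4.62) and 2 of 4 NK cell markers (-2.19) were lower. Of the immediate-early genes 5 of 9 were higher (0.46). The part of cell makeup in the unsorted host differences was not tested. Over all members the counts fell to 2 higher and 10 lower without unsorted Pfp/Rag2-/- library 2, against 6.36% and 8.4% of all genes. They fell to 3 and 12 without unsorted Pfp/Rag2-/- library 1 (9.04% and 10.8% of all genes) or unsorted WT library 3 (10.1% and 9.8%). The higher calls were 8 without unsorted WT library 1, against 20% of all genes. The 5 higher members were Dnaja4, Dnajb2, Dnajc14, Dnajc18 and Dnajc28, with log2 differences between 0.37 and 0.96. Whether the host difference itself differed between sorted and unsorted cells was tested in 1 limma fit over 12 libraries. None of 75 members passed, against 0.934% of all genes tested (0.223% higher, 0.712% lower), while 26 had an unadjusted p under 0.05. The share of all genes at that unadjusted threshold was not counted, so the 26 cannot be read as a result about the members. On recovered reads edgeR called 0, and DESeq2 called 16, of which 6 were higher and 10 lower, against 7.39% of all genes by DESeq2 (2.64% higher, 4.75% lower). The smallest adjusted p among inducible members was that of Dnajb1, with a difference of the host differences of -0.97 ± 0.20 (adjusted p = 0.0508), and it crossed the threshold under 7 of 21 alternatives, over which its adjusted p ran from 0.000609 to 0.127. Without WT GFP+ library 3, 8 members were called lower in this test, against 2.98% of all genes. Without unsorted WT library 1 the counts were 4 higher and 7 lower, against 2.6% and 4.24%, and without unsorted WT library 2 they were 2 and 3, against 0.743% and 2.59%.

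**Figure D3:**
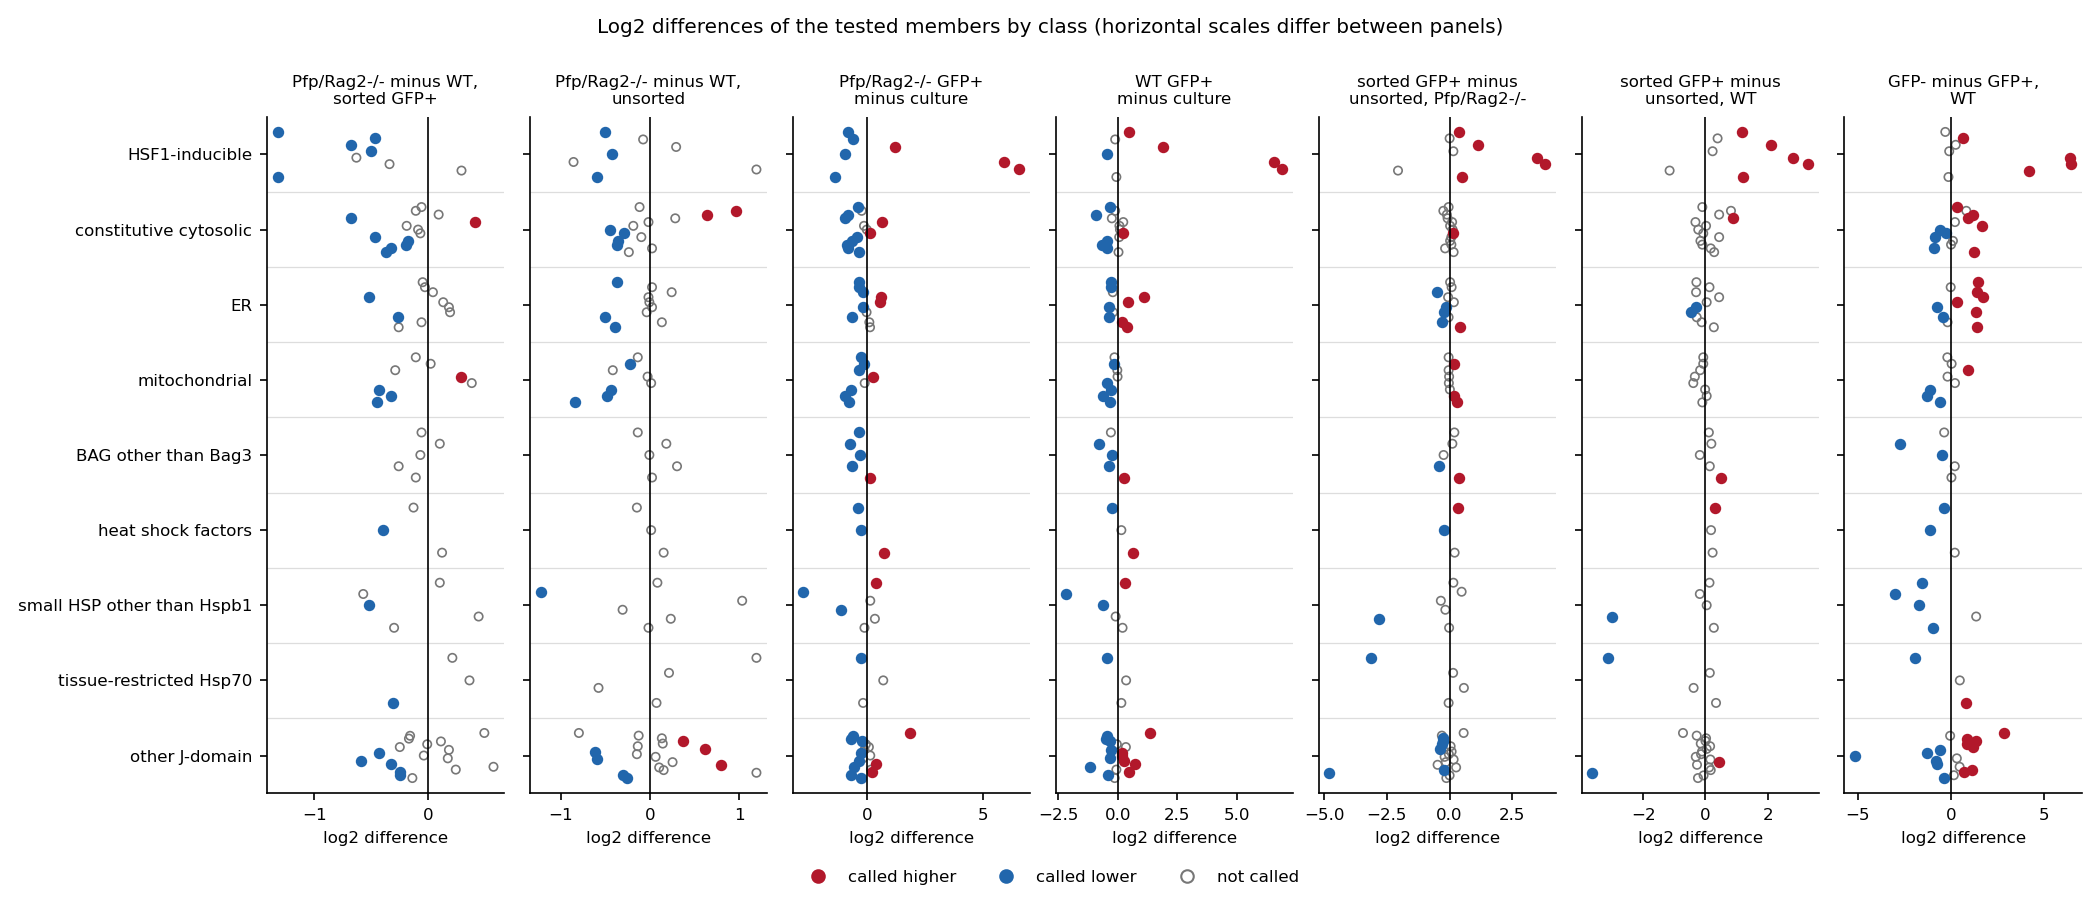
Log2 differences of the tested members by class in 7 comparisons, 1 panel each, with red for members called higher, blue for members called lower and open symbols for those not called (horizontal scales differ between panels). HSF1-inducible members lie at or right of 0 in sorted against unsorted cells apart from Hspb1, and 5 of 8 are called lower in Pfp/Rag2-/- against WT GFP+ cells.

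Against the culture that had been injected, inducible members split. The comparisons of the 2 hosts with culture share the 3 culture libraries. In Pfp/Rag2-/- GFP+ cells 14 members were higher and 40 lower of 72 tested, against 72.2% called among all genes (35.1% higher, 37.1% lower). In WT GFP+ cells 18 were higher and 29 lower of 71, against 65.6% (30.3% higher, 35.3% lower). Without the library that stood apart the counts for Pfp/Rag2-/- were 15 higher and 38 lower, against 34.9% and 37.5% of all genes. Dnajb1 had 1645, 1444 and 1592 normalized counts in culture and was higher in Pfp/Rag2-/- GFP+ cells (1.23 ± 0.10, adjusted p = 4.3e-06) and in WT GFP+ cells (1.91 ± 0.13, adjusted p = 4.46e-06). Hspa1a was at least 35.7-fold higher in Pfp/Rag2-/- and at least 42.6-fold higher in WT GFP+ cells than the level of 3 reads per culture library. Library 1 of each host raised these bounds, and without it they were 10.4-fold in Pfp/Rag2-/- and 20.1-fold in WT GFP+ cells. Hspa1b had 2 reads in culture in all, and its ratio to culture was 326 (95% counting interval 89.8 to 2690) in Pfp/Rag2-/- and 396 (109 to 3270) in WT GFP+ cells. Without library 1 of the host it was 137 (37.4 to 1140) in Pfp/Rag2-/- and 179 (49.1 to 1490) in WT GFP+ cells. Hspb1 had 1 read in culture, and its ratio was 65.9 (11.4 to 2640) in Pfp/Rag2-/- GFP+ cells, 27.7 (4.4 to 1150) without library 1, and 36.8 (6.21 to 1490) in WT GFP+ cells. All 9 immediate-early genes and all 12 macrophage and microglia markers were also higher than in culture in both hosts. The median log2 difference of the immediate-early genes was 3.36 in Pfp/Rag2-/- and 3.61 in WT GFP+ cells, and that of the macrophage and microglia markers was 6.28 and 7.07. Their part in these differences was not tested.

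Hsp90aa1 was lower than in culture in both hosts, while Hsph1, Bag3 and Dnaja1 were lower in Pfp/Rag2-/- GFP+ cells and Bag3 was higher in WT GFP+ cells. Hsp90aa1 had 8067, 8939.7 and 9356 normalized counts in Pfp/Rag2-/- GFP+ libraries, 13763, 12202 and 11473 in WT GFP+ libraries and 17172, 16482 and 16956 in culture. All culture values of Hsp90aa1 lay above all tumour values, with log2 differences of -0.94 ± 0.06 (adjusted p = 7.65e-07) and -0.44 ± 0.07 (adjusted p = 0.000561). Hsph1 had 9425, 7796 and 8049 in culture and was lower in Pfp/Rag2-/- GFP+ cells (-1.39 ± 0.07, adjusted p = 2.96e-07), while its difference in WT GFP+ cells was -0.06 (adjusted p = 0.754). Bag3 was lower in Pfp/Rag2-/- GFP+ cells than in culture (-0.83 ± 0.05, adjusted p = 7.41e-07). In WT GFP+ cells it was 0.49 ± 0.19 (adjusted p = 0.0487), a call lost in 9 of the alternatives, among them without WT GFP+ library 1 (0.32, adjusted p = 0.147). Dnaja1 had -0.58 ± 0.05 (adjusted p = 9.34e-06) in Pfp/Rag2-/- and -0.11 (adjusted p = 0.29) in WT GFP+ cells.

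Host cells of WT tumours had more stress-induced Hsp70 transcript, and more of 6 ER members, than the tumour cells beside them. In GFP- cells 24 members were higher and 24 lower of 72 tested than in WT GFP+ cells, against 76.4% called among all genes (42.7% higher, 33.7% lower). The median log2 difference over all genes was 0.19 here and -0.06 with TMM scaling, under which 20 members were higher and 31 lower, against 36.8% and 39.4% of all genes (76.2% in either direction). Of the inducible members Hspa1a (6.41 ± 0.60, adjusted p = 0.000157), Hspa1b (6.47 ± 0.63, adjusted p = 0.000185), Hspb1 (4.22 ± 0.37, adjusted p = 0.000128) and Dnaja1 (0.66 ± 0.17, adjusted p = 0.0113) were higher in GFP- cells. Hspb1, the small heat shock protein also called Hsp25 in mouse, had 375, 162 and 206 normalized counts in GFP- libraries, against 12.4, 9.5 and 12.9 in WT GFP+ libraries, which did not overlap. Bag3 (-0.30, adjusted p = 0.425), Hsph1 (-0.13, adjusted p = 0.7), Dnajb1 (0.26, adjusted p = 0.329) and Hsp90aa1 (-0.09, adjusted p = 0.641) did not pass, and for all 4 the GFP- and GFP+ libraries overlapped. The GFP- libraries carried immune markers, and all 12 macrophage and microglia, all 7 T cell and all 4 NK cell markers were higher in them than in WT GFP+ libraries. The 9 immediate-early genes had their highest summed level in GFP- libraries, between 495515 and 520183 normalized counts, and their part in the Hsp70 difference was not tested.

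Of the 10 ER members 6 were higher and 2 lower in GFP- than in WT GFP+ cells, with a median log2 difference of 0.85, a called share of 80% that lies near the 76.4% over all genes. Hspa5 had 93820.0, 82590.4 and 58545 normalized counts in GFP- libraries, against 32501, 30378 and 26169.7 in WT GFP+ libraries (1.38 ± 0.20, adjusted p = 0.000838). Dnajb9, a J-domain partner of Hspa5 induced by ER stress, had 4263, 4538 and 2302 in GFP- libraries, against 1227, 1064 and 921 in WT GFP+ libraries (1.74 ± 0.27, adjusted p = 0.0012). For both genes every GFP- library lay above every library of the 5 other groups. Dnajb11 averaged 4719 ± 648 in GFP- and 1678 ± 38.5 in WT GFP+ cells, Dnajb14 1351 ± 114 and 500.0 ± 42.2, and Dnajc3 3765 ± 453 and 1470.0 ± 109.9 (SD, n = 3 each), and the 3 log2 differences lay between 1.35 and 1.48. The sixth, Dnajc1, had 0.35 (adjusted p = 0.00708) and was not called with TMM scaling (0.10, adjusted p = 0.371). Hsp90b1, the ER Hsp90 also called Grp94, went the other way, with 18309, 20497 and 18711 in GFP- libraries, against 24953, 25704 and 26249.9 in WT GFP+ libraries (-0.42 ± 0.09, adjusted p = 0.00447), a call lost without both libraries numbered 1 (adjusted p = 0.0677). So did Dnajc10, a J-domain protein with disulfide reductase activity (-0.72, adjusted p = 0.00318). Hspa5 and Hsp90b1, whose windows both hold the ER stress response element, moved in opposite directions in this comparison. Dnajb12, a J-domain protein of the ER membrane, averaged 1377 ± 103 in GFP- and 1389 ± 74.7 in WT GFP+ cells, and Hspa13, an ER-associated Hsp70-like protein, 1776 ± 341 and 1992 ± 43.6 (SD, n = 3 each), and neither was called.

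Between the hosts 2 of 10 ER members were lower in sorted Pfp/Rag2-/- GFP+ cells and none was higher. These were Dnajb9 (-0.52 ± 0.12, adjusted p = 0.0181) and Hsp90b1 (-0.27 ± 0.06, adjusted p = 0.0125), with a median of -0.04 over the class, and the called share of 20% lies below the 30.4% over all genes. Without WT GFP+ library 3 the counts were 2 higher (Dnajc3 and Dnajc10) and 3 lower, against 19.2% and 18.2% of all genes. Hspa5 was then called at -0.34 (adjusted p = 0.00631). Dnajb9 lost its call without Pfp/Rag2-/- GFP+ library 2 or 3 or WT GFP+ library 2, with adjusted p between 0.0608 and 0.069. Hsp90b1 lost its call without both libraries numbered 1. Hspa5 had 25216, 24472 and 24595 normalized counts in Pfp/Rag2-/- GFP+ libraries, against 32501, 30378 and 26169.7 in WT GFP+ libraries (-0.26, adjusted p = 0.0645). In unsorted cells 3 ER members were lower in Pfp/Rag2-/- mice (Hsp90b1, Dnajb11 and Hspa5), a called share of 30%, against 29.9% over all genes. None was called without unsorted Pfp/Rag2-/- library 2, against 14.8% of all genes. Hspa5 kept its unsorted call only without unsorted WT library 1 or without both libraries numbered 1. Dnajb11 kept its call in those cases and without unsorted WT library 2, and lost it without any other single library. Against culture 2 ER members were higher and 5 lower in Pfp/Rag2-/- GFP+ cells (70% called, against 72.2% of all genes). In WT GFP+ cells 4 were higher and 4 lower (80%, against 65.6%). Dnajb9 was higher in both hosts, by 0.61 ± 0.08 (adjusted p = 0.000121) and 1.12 ± 0.10 (adjusted p = 2.57e-05), and Hsp90b1 was lower in both, with log2 differences of -0.62 and -0.35. In sorted against unsorted cells 1 ER member was higher and 4 were lower in Pfp/Rag2-/- tumours (50% called, against 30.2% of all genes). None was higher and 2 were lower in WT tumours (20%, against 16.8%). The higher one, in Pfp/Rag2-/- tumours, was Hspa5 (0.40 ± 0.06, adjusted p = 0.00346), and Dnajb14 (-0.50, adjusted p = 0.00352) and Hspa13 (-0.32, adjusted p = 0.00238) were lower there. The other lower ones, Dnajc3 (-0.22, adjusted p = 0.0211) and Dnajc10 (-0.15, adjusted p = 0.0292), were the 2 called in WT tumours as well, with -0.46 (adjusted p = 0.0399) and -0.31 (adjusted p = 0.0485). In WT tumours both calls were lost when any library but unsorted WT library 1 was left out. In Pfp/Rag2-/- tumours both were lost without GFP+ library 2 or 3 or unsorted library 2, and Dnajc10 also without the library that stood apart or unsorted library 3. In a fit over all 18 libraries Hspa5 (adjusted p = 0.0556) and Hspa13 (adjusted p = 0.0547) lost these calls.

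**Figure D4:**
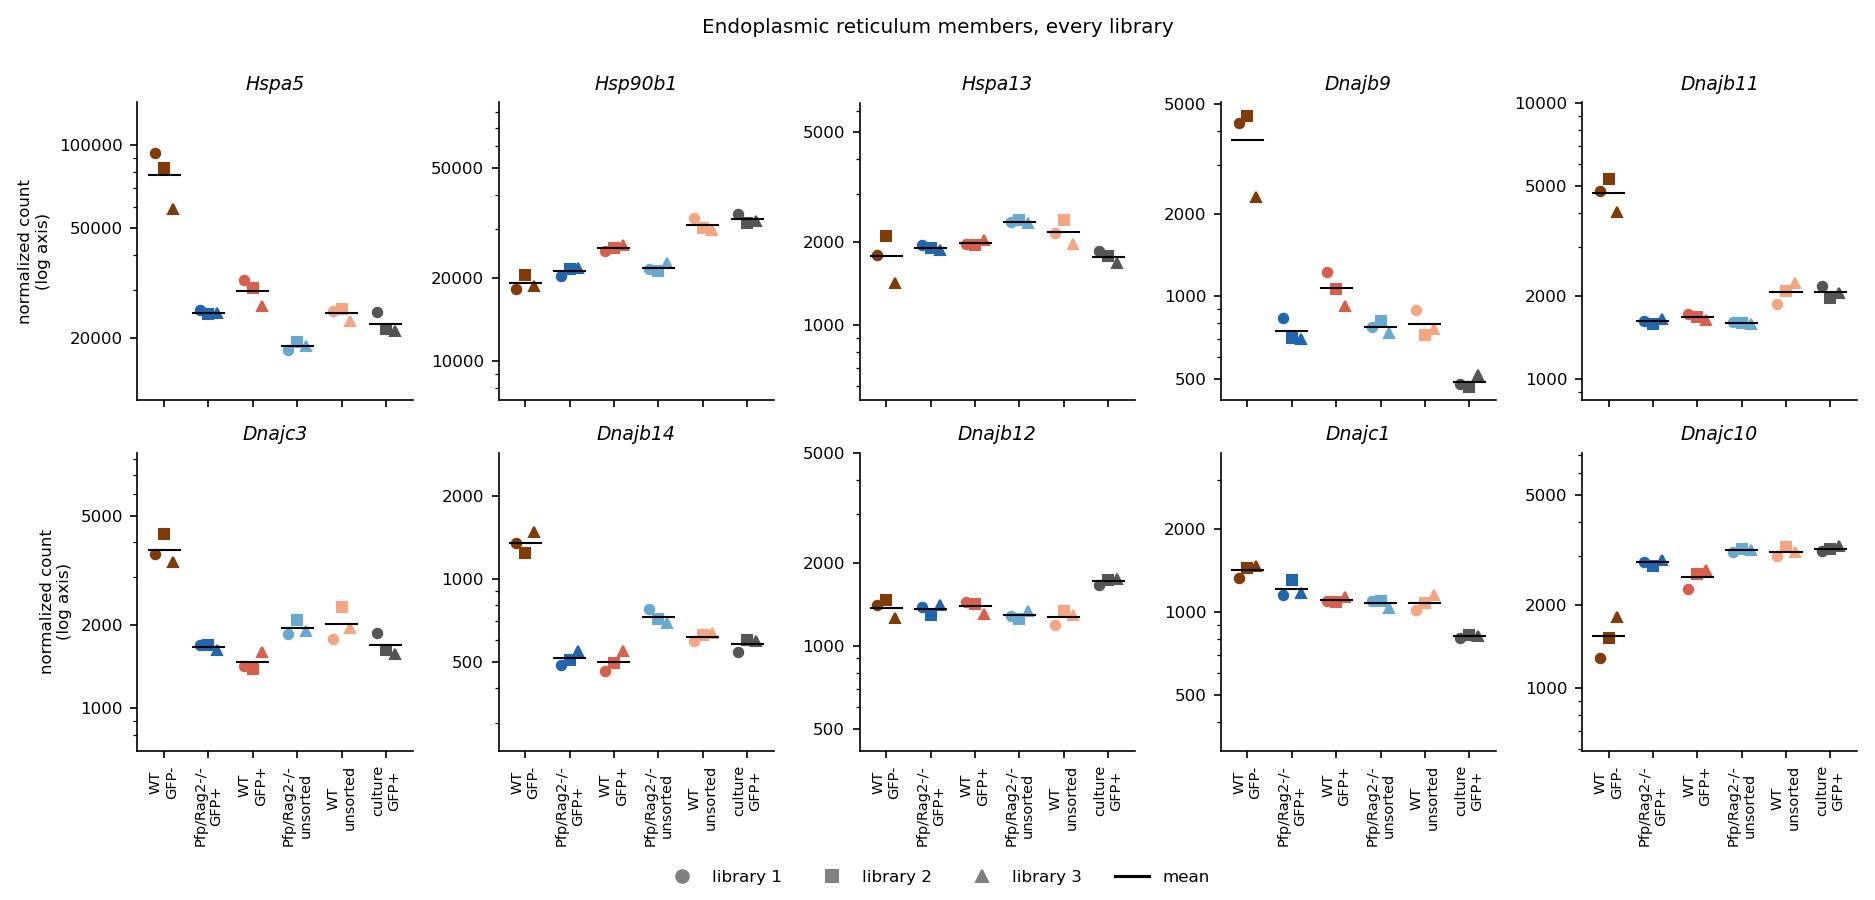
Normalized counts (log axis) of the 10 ER members in the 6 groups, with 1 symbol per library (circle, square and triangle for libraries 1, 2 and 3) and a black line at the mean. Hspa5, Dnajb9, Dnajb11, Dnajb14 and Dnajc3 are highest in GFP- libraries, while Hsp90b1 is highest in culture and unsorted WT libraries.

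The mitochondrial chaperonin pair and the mitochondrial Hsp70 were highest in culture and lower in Pfp/Rag2-/- than in WT tumours. Hspd1, the chaperonin Hsp60, had 4904, 4246 and 4543 normalized counts in GFP- libraries, 8332, 8874 and 9198 in Pfp/Rag2-/- GFP+ libraries, 11453, 11296 and 10501 in WT GFP+ libraries and 17358, 16873 and 16809 in culture. These 4 groups did not overlap. Hspd1 fell by 0.33 on the log2 scale in sorted Pfp/Rag2-/- against WT GFP+ cells (adjusted p = 0.00774), Hspe1, its lid Hsp10, by 0.45 (adjusted p = 0.00506) and Hspa9, the import motor mortalin, by 0.43 (adjusted p = 0.00815). The 3 also fell in unsorted cells, by 0.49, 0.84 and 0.44, with Hspa9 called by a narrow margin (adjusted p = 0.0414) that it lost with TMM scaling (adjusted p = 0.0518). Hspd1 lost the sorted call without both libraries numbered 1 (-0.27, adjusted p = 0.062). Against culture Hspd1 was lower, with a log2 difference of -0.95 ± 0.04 in Pfp/Rag2-/- GFP+ cells (adjusted p = 1.9e-07) and -0.62 ± 0.05 in WT GFP+ cells (adjusted p = 1.24e-05). Hspd1 (-1.28 ± 0.09, adjusted p = 5.46e-05), Hspe1 (-0.56, adjusted p = 0.00332) and Hspa9 (-1.11 ± 0.10, adjusted p = 0.000136) were lower in GFP- than in WT GFP+ cells. Of the class of 8, 1 was higher and 3 lower in sorted cells between hosts (50% called, against 30.4% of all genes). The higher one was Dnajc19, a J-domain protein of the import motor (0.29, adjusted p = 0.0109). Dnajc15, a J-domain protein of the inner membrane, was higher in GFP- than in WT GFP+ cells (0.94 ± 0.16, adjusted p = 0.00174). Against culture 1 of the 8 was higher and 6 lower in Pfp/Rag2-/- GFP+ cells (87.5% called, against 72.2% of all genes). None was higher and 5 were lower in WT GFP+ cells (62.5%, against 65.6%). Hspd1 and Hspe1 overlap on opposite strands, and the strand setting of the counting was not given, so reads in the overlap may be shared.

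The constitutive cytosolic members Hspa8 and Hsp90ab1 moved in opposite directions between host and tumour cells. Hspa8, the Hsc70 that also uncoats clathrin vesicles, averaged 36267 ± 5534 normalized counts in GFP- and 15284 ± 1180.4 in WT GFP+ cells (SD, n = 3 each; 1.24 ± 0.14, adjusted p = 0.000298). Hsp90ab1 averaged 57071 ± 4525 in GFP- and 102945 ± 8148 in WT GFP+ cells (-0.85 ± 0.13, adjusted p = 0.001). Between hosts both fell in sorted Pfp/Rag2-/- GFP+ cells, Hspa8 by 0.37 (adjusted p = 0.00766) and Hsp90ab1 by 0.47 (adjusted p = 0.0103). Of the 13 constitutive members 1 was higher and 6 lower in that comparison, where 15.0% of all genes were higher and 15.3% lower. Without both libraries numbered 1, 1 was lower, against 8.54% of all genes, and Hsp90ab1 had -0.41 (adjusted p = 0.0744). In unsorted cells Hspa8 (-0.24, adjusted p = 0.0915) and Hsp90ab1 (-0.10, adjusted p = 0.669) did not pass. Against culture both were lower in Pfp/Rag2-/- GFP+ cells, with log2 differences of -0.34 and -0.41, and had 0.03 and 0.06 in WT GFP+ cells, neither past the threshold. Over the 13 constitutive members 2 were higher and 8 lower than in culture in Pfp/Rag2-/- GFP+ cells (76.9% called, against 72.2% of all genes). In WT GFP+ cells 1 was higher and 5 lower (46.2%, against 65.6%). Hspa4, an Hsp110 nucleotide exchange factor, was lower in WT GFP+ cells (-0.66 ± 0.05, adjusted p = 9.18e-06). Dnajb5, a cytosolic J-domain protein, was the 1 constitutive member higher in Pfp/Rag2-/- than in WT sorted cells, with 713, 810.1 and 753 normalized counts in Pfp/Rag2-/- GFP+ libraries, against 613, 503 and 607 in WT GFP+ libraries (0.41 ± 0.10, adjusted p = 0.0208). Its relative Dnajb4 went the other way (-0.68 ± 0.20, adjusted p = 0.0393). Dnajb5 (adjusted p = 0.0509) and Dnajb4 (adjusted p = 0.055) both lost their calls in a fit over all 18 libraries. Dnajb5 also lost its call without Pfp/Rag2-/- GFP+ library 2 or 3 (adjusted p = 0.0785 and 0.067), and Dnajb4 lost its call when any of 5 of the 6 libraries was left out, with adjusted p between 0.0724 and 0.123.

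Of the 4 heat shock factors 3 were tested, and Hsf2 was the one called between hosts in sorted cells. That called share of 33.3% lies near the 30.4% over all genes. Hsf1, the main stress-activated factor, which is switched on largely after translation, averaged 1271 ± 95.9 normalized counts in GFP- cells, 1484 ± 42.2 in Pfp/Rag2-/- GFP+ cells, 1621 ± 21.3 in WT GFP+ cells, 1181 ± 118 in unsorted Pfp/Rag2-/- cells, 1309 ± 81.4 in unsorted WT cells and 1920.4 ± 61.4 in culture (SD, n = 3 each). Its host difference in sorted cells was -0.13 (adjusted p = 0.0778). Hsf1 was higher in sorted than in unsorted cells, by 0.33 in Pfp/Rag2-/- (adjusted p = 0.0157) and 0.31 in WT tumours (adjusted p = 0.0394), calls lost in 2 of the Pfp/Rag2-/- and 5 of the WT alternatives that left out 1 library. It was lower than in culture, with log2 differences of -0.37 in Pfp/Rag2-/- GFP+ cells (adjusted p = 6.34e-05) and -0.24 in WT GFP+ cells (adjusted p = 0.00202). Hsf2 was lower in GFP- than in WT GFP+ cells (-1.11 ± 0.13, adjusted p = 0.000377). In sorted cells between hosts it was -0.40 (adjusted p = 0.0295) and lost its call when any of 5 of the 6 libraries was left out. Hsf4, known mainly from the lens, averaged between 45.8 ± 8.81 in culture and 83.3 ± 18.6 in GFP- cells, and Hsf3 had at most 2.63 normalized counts in any library.

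**Figure D5:**
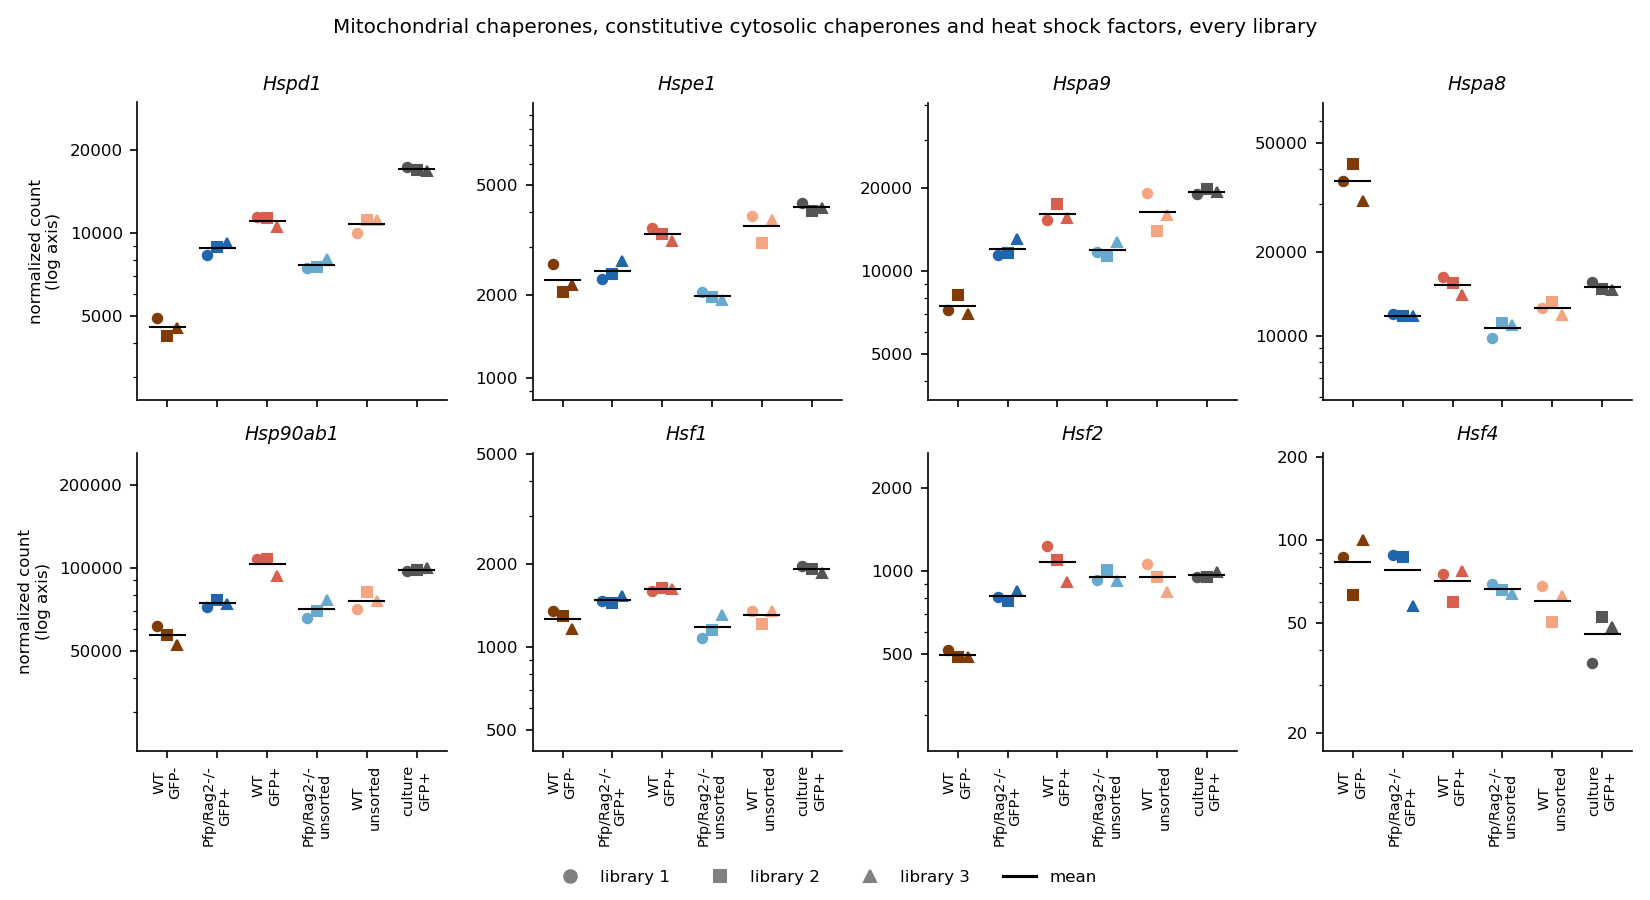
Normalized counts (log axis) of Hspd1, Hspe1, Hspa9, Hspa8, Hsp90ab1, Hsf1, Hsf2 and Hsf4 in the 6 groups, with 1 symbol per library (circle, square and triangle for libraries 1, 2 and 3) and a black line at the mean. Hspd1 and Hspa9 are highest in culture and lowest in GFP- libraries, and Hspa8 is highest in GFP- libraries.

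Of the remaining classes, the 5 other BAG proteins had no host call in sorted or unsorted cells, where 30.4% and 29.9% of all genes were called. Bag6, which holds tail-anchored and unfolded proteins, was the 1 of the 5 called higher in sorted than in unsorted cells, in both hosts, and is named here after its values were seen. In Pfp/Rag2-/- tumours 1 of the 5 was lower in sorted cells (40% called, against 30.2% of all genes, 11.1% higher). In WT tumours none was lower (20% called, against 16.8% of all genes, 6.46% higher). Against culture 1 of the 5 was higher and 4 lower in Pfp/Rag2-/- GFP+ cells (100% called, against 72.2% of all genes). In WT GFP+ cells 1 was higher and 3 lower (80%, against 65.6%), and the higher one was Bag6 in both. Bag2, which inhibits the ubiquitin ligase Stub1, was lower in GFP- than in WT GFP+ cells (-2.76 ± 0.27, adjusted p = 0.000179), with 48.6, 47.8 and 85.5 normalized counts in GFP- libraries, against 417, 412 and 378 in WT GFP+ libraries. Dnajc22 had 4.41, 12.3 and 78.9 in GFP- libraries, against 649, 620.4 and 626 in WT GFP+ libraries (-5.14 ± 0.92, adjusted p = 0.00213), and GFP- library 3 was the highest of its group for both genes. Dnajb13 was higher in GFP- cells (2.85 ± 0.32, adjusted p = 0.000317) and overlaps Ucp2 on the other strand, so its reads may not all be its own. In GFP- against WT GFP+ cells, where 33.7% of all genes were lower and 42.7% higher, 5 of the 7 other small heat shock proteins were tested. Of these, 4 were lower and none higher. Among them Hspb2 had -3.01 ± 0.29 (adjusted p = 0.000186), and it overlaps Cryab on the other strand. Hspb6, a small heat shock protein known from muscle, was lower in Pfp/Rag2-/- GFP+ cells than in culture (-1.13 ± 0.09, adjusted p = 4.26e-06). Hspa12b, an atypical Hsp70 known from endothelium, was lower in GFP- than in WT GFP+ cells (-1.95 ± 0.36, adjusted p = 0.00249).

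Of the 21 other J-domain proteins 17 were tested between hosts in sorted cells, with none higher and 5 lower, and in unsorted cells 3 of 18 were higher and 4 lower. Dnajc21, which acts in ribosome biogenesis, had 1759, 1755 and 1756 normalized counts in unsorted Pfp/Rag2-/- libraries, against 2583, 2729.6 and 2784 in unsorted WT libraries (-0.62 ± 0.07, adjusted p = 0.000886), and the hosts did not overlap. Against culture 3 of 17 were higher and 8 lower in Pfp/Rag2-/- GFP+ cells, and 6 of 17 were higher and 7 lower in WT GFP+ cells. In GFP- against WT GFP+ cells 7 of 17 were higher and 6 lower. In sorted against unsorted cells none of 18 was higher and 6 were lower in Pfp/Rag2-/- tumours, and 1 was higher and 1 lower in WT tumours. The called share of the class was 29.4% between hosts in sorted cells, where it was 30.4% over all genes, and 38.9% in unsorted cells, against 29.9%. It was 64.7% against culture in Pfp/Rag2-/- GFP+ cells, where all genes had 72.2%, and 76.5% in WT GFP+ cells, where they had 65.6%. In GFP- cells it was 76.5%, against 76.4% over all genes, and in sorted against unsorted cells 33.3% in Pfp/Rag2-/- tumours, against 30.2%, and 11.1% in WT tumours, against 16.8%.

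Pathway genes outside the 80 were read from lists of textbook partners. Of 14 cochaperones and client-handling genes, none was higher and 9 were lower in Pfp/Rag2-/- than in WT sorted GFP+ cells, and in unsorted cells none was higher and 7 were lower, where 15.3% and 15.1% of all genes were lower. Cryab, the alpha-B crystallin small heat shock protein, averaged 489.8 ± 34.5 normalized counts in Pfp/Rag2-/- and 1691 ± 262 in WT GFP+ cells (SD, n = 3 each; log2 difference -1.78 ± 0.12, adjusted p = 0.000211). Cryab was also lower than in culture, with log2 differences of -3.88 in Pfp/Rag2-/- and -2.10 in WT GFP+ cells, and lower in GFP- than in WT GFP+ cells (-3.34). All 8 subunits of the cytosolic chaperonin TRiC were lower in tumour-grown GFP+ cells of both hosts than in culture and lower in GFP- than in WT GFP+ cells, and 7 of 8 were lower in Pfp/Rag2-/- than in WT sorted cells. Over all genes 37.1% were lower than in culture in Pfp/Rag2-/- and 35.3% in WT GFP+ cells, and 33.7% were lower in GFP- cells. Of 14 ER stress and folding genes 5 were higher and 2 lower in GFP- than in WT GFP+ cells, led by Sdf2l1 (2.09 ± 0.14, adjusted p = 5.43e-05) and Herpud1 (1.82 ± 0.23, adjusted p = 0.000479), which act in ER folding and degradation. Between hosts in sorted cells none of the 14 was higher and 5 were lower. Of 7 mitochondrial folding genes 1 was higher and 5 lower in GFP- than in WT GFP+ cells, where 42.7% of all genes were higher and 33.7% lower.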

How the data were processed

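Poly(A) RNA of 18 libraries was sequenced on a NextSeq 500 after directional library preparation, per the labels' protocols. Reads were aligned with STAR 2.5.2b to GRCm38 and scaled with DESeq2, per the submitters' processing notes. The counting tool, its strand setting and the annotation release were not given in the sources used here. The deposited values are a normalized signal, the authors' gene counts divided by a size factor per library. Every value was a whole multiple of 1 step per library (100% of values within 0.05 of a read), so read totals and size factors were recovered from the steps. Gene names and lengths came from GENCODE vM21, which named 48349 of 48795 identifiers.

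Differences were fitted over all genes on log2(value + 1) with limma 3.58.1 in R 4.3.3, using the libraries of the groups compared and genes with a value of at least 10 in at least 3 of them. The log2(value + 1) scale understates changes of low genes. Members were called where the p-value, adjusted over all genes tested by the Benjamini-Hochberg method, was under 0.05. A level of 0 was set against a floor of 3 reads, and intervals on read ratios cover counting error only. The fitting code was run on simulated data drawn with the same spread setting for every gene, so that run does not measure error rates at the spread of these libraries. The alternatives were a pseudocount of 10, no filter, a filter at 50, TMM scaling, a fit over all 18 libraries, the replicate number as a block, edgeR 4.0.16 and DESeq2 1.42.0 on recovered reads, and each library left out. Deviations of same-numbered libraries from their group means correlated at 0.536, 0.414 and 0.119 in sorted cells of the 2 hosts. In GFP- against WT GFP+ cells they correlated at 0.17, 0.0971 and 0.313, and in no comparison but the first was every pair over 0.1. The 2 hosts are different mice, and what same-numbered libraries share was not tested.

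Named were the inducible, ER and mitochondrial members, the heat shock factors, Hspa8 and Hsp90ab1, up to 4 of the highest and lowest called members per comparison with a mean of at least 100, up to 2 called genes of each pathway list in each direction, and genes needed to name a count of 5 or fewer. Jun was named after its values were seen. The members, lists and tests were chosen with earlier results of these data known.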

Additional observations from a re-analysis of the deposited data

Results flagged for a closer look

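For 4 genes of the pathway and immediate-early lists, the host difference (Pfp/Rag2-/- minus WT) differed between sorted and unsorted cells in a limma fit over 12 libraries, where 0.934% of all 16161 genes tested were called. Ppid, a cyclophilin of the Hsp90 machinery, had a difference of the host differences of 0.61 on the log2 scale (adjusted p = 0.0247). Manf, a secreted ER stress protein, had 0.47 (adjusted p = 0.0247). The immediate-early genes Fosb, with -1.89 (adjusted p = 0.0394), and Egr1, with -1.31 (adjusted p = 0.0381), went the other way. Without the library labelled Pfp/Rag2-/- GFP+ 1, which stood apart, no gene was called among all tested, and these 4 had 0.63 for Ppid (adjusted p = 0.0811), 0.46 for Manf (adjusted p = 0.0838), -1.94 for Fosb (adjusted p = 0.0887) and -1.28 for Egr1 (adjusted p = 0.0927). Of the 12 libraries left out in turn, the call held for 4 in Ppid and for 3 in each of the others.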

How the results depend on the processing

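Counts of members kept within 1.5 times of the reported ones in 211 of 252 alternatives, and of the alternatives for single members and pathway genes 4777 of 5289 kept direction and side of the threshold. A further 116 changed sign without being called on either side. In sorted cells between hosts, 2 members higher became 0 in the fit over all 18 libraries, where 10% of all genes were higher. Leaving out libraries gave 1 to 7 higher and 11 to 27 lower, against 7.27 to 19.2% and 8.54 to 18.2% of all genes. In unsorted cells, 5 higher became 3 with no filter and 3 with the replicate block, where 6.64% and 11% of all genes were higher. Leaving out libraries gave 2 to 8 higher and 10 to 21 lower, against 6.36 to 20% and 8.4 to 19.7% of all genes. In sorted against unsorted WT cells, DESeq2 called 16 higher, against 10.7% of all genes. There 5 lower became 2 with a filter at 50 (6.95% of all genes), 11 in the fit over all 18 libraries (15.3%) and 3 with the replicate block (8.24%). Leaving out libraries gave 1 to 13 higher and 1 to 8 lower, against 0.799 to 9.1% and 1.53 to 12.7% of all genes. In Pfp/Rag2-/- tumours the fit over all 18 libraries gave 6 higher and 9 lower, against 6.21% and 10.6% of all genes. For the difference of host differences, 0 calls became 6 higher and 10 lower with DESeq2, against 2.64% and 4.75% of all genes. They became 1 lower with a pseudocount of 10 (0.73% of all genes), 2 lower with a filter at 50 (1.62%) and 1 lower with TMM scaling (0.971%). Leaving out libraries gave 0 to 4 higher and 0 to 8 lower, against 0 to 2.6% and 0 to 4.24% of all genes. The cause was not tested for any of these. In sorted cells between hosts, where deviations of same-numbered libraries correlated, the replicate block gave 2 higher and 23 lower, against 15.1% and 15.9% of all genes. Dnajc19 in unsorted cells between hosts reversed, from -0.03 (adjusted p = 0.939) to 0.33 (adjusted p = 0.0324) without unsorted WT library 1, and over all libraries left out it ran from -0.25 to 0.33.

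With 3 libraries a group the precision is limited. Members at low counts rest on few reads, such as Hspa1a in unsorted cells, Hspb1 in tumour cells, and Dnajc6 and Hspa12a in sorted GFP+ cells. Sorting and cell makeup cannot be told apart, since unsorted cells did not pass the sorter. The split of reads between near-identical or overlapping genes is uncertain.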
